A study of Mus musculus with 18 samples.

Results

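Wnt signalling genes were followed on expression arrays of mouse embryonic fibroblasts (MEFs) with and without the DNA glycosylase gene Tdg. The set was defined by gene symbol: all Wnt ligands and Frizzled receptors with a numbered symbol, and 17 further genes for co-receptors, ligand processing, cytoplasmic transducers, feedback inhibitors and nuclear factors of the pathway. It came to 69 probe sets of 44 genes, out of 12394 genes named by a single symbol and 22690 probe sets on the array. A probe set is the group of short probes that reads 1 transcript region, and only probe sets annotated to a single symbol were taken. No probe set had Fzd10 or Tcf7 as its single symbol, so both are not analysed here. Of the 44 genes, 26 were read by 1 probe set and 18 by several.

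The cells were MEFs immortalised with SV40, whose large T antigen inactivates p53 and the retinoblastoma protein, and both genotypes carried it. The control group was heterozygous (Tdg+/-, clone 4) and the other group lacked Tdg (Tdg-/-, clone 9), with 3 arrays each made from 13 µg of total RNA. Each genotype was thus a single clone, so clone and genotype cannot be told apart, and no label says that the 3 arrays of a clone came from separate cultures, and the tests take the spread between these arrays as error even where it is technical. Embryonic stem cells and neuronal precursors of the same series are not analysed here.

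Wnt proteins are secreted lipid-modified ligands that bind a Frizzled receptor together with a co-receptor at the cell surface. In the canonical branch, binding to Frizzled and Lrp5 or Lrp6 recruits Dishevelled and Axin to the membrane and stops a complex of Axin, Apc and Gsk3b from marking beta-catenin for destruction, and beta-catenin then acts with TCF/LEF factors in the nucleus. Other branches run through Ror receptors, planar polarity proteins or calcium. In the embryo, fibroblasts and their mesenchymal precursors both send and receive Wnt signals. TDG excises thymine from G:T mismatches and oxidised forms of methylcytosine, and is known to act in active DNA demethylation.

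Tdg itself, read by 3 probe sets that are each also annotated to Tdg pseudogenes, was lower in Tdg-/- cells, with log2 differences of -1.79, -2.65 and -2.26 and no overlap of the arrays. The array medians lay between 7.38 and 7.42 on the log2 scale, and 1 array stood apart. Tdg+/- replicate 1 had an SD over all probe sets of 1.70 against 1.81 to 1.90 on the others, and correlated with them at 0.936 to 0.962, where the other pairs of arrays correlated at 0.982 to 0.998. Dim probe sets read higher and bright ones lower on it. With all probe sets ranked by level and cut into 4 equal bins, its median difference from the mean of the other Tdg+/- arrays was 0.23 (log2) in the dimmest bin, then 0.10, then -0.23 and, in the brightest bin, -0.28. The Wnt genes showed the same order, with median differences of 0.27, 0.06, -0.12 and -0.26 over 16, 25, 16 and 12 probe sets. The main results are therefore given with and without that array.

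**Figure D1:**
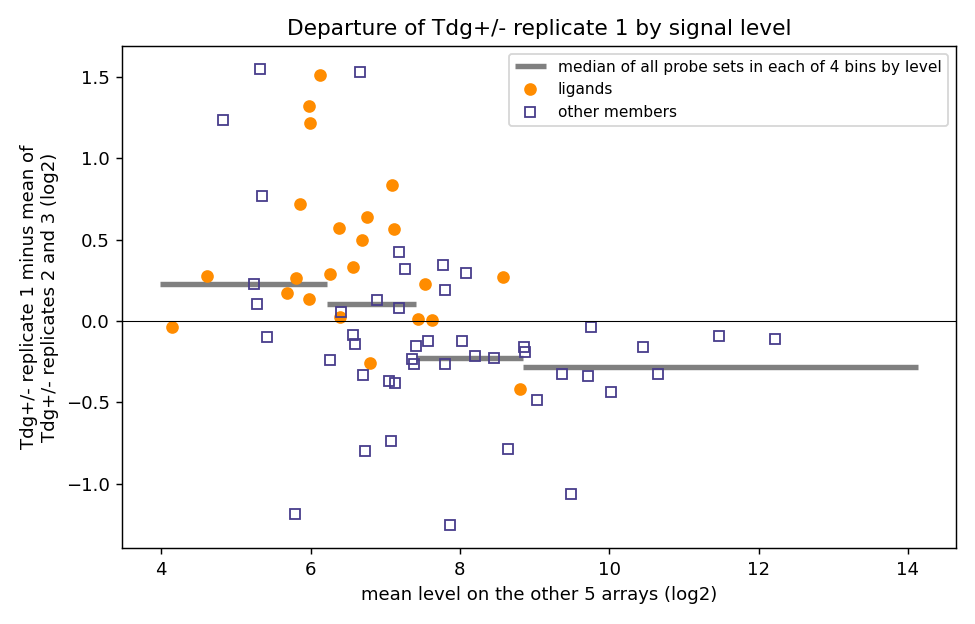
Difference of Tdg+/- replicate 1 from the mean of Tdg+/- replicates 2 and 3 (log2, vertical axis) against the level of each Wnt pathway probe set (log2, horizontal axis), with the median over all 22690 probe sets in each of 4 bins ranked by level. Dim probe sets lie mostly above 0 and bright ones below it, among the Wnt genes as over the whole array.

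With all 6 arrays, 2 of the 69 probe sets were higher in Tdg-/- cells at an adjusted p under 0.05 and 0 were lower, by limma with Benjamini-Hochberg adjustment over all 22690 probe sets. They were Wnt4, a ligand, and 1 of the 2 probe sets of Fzd6, a receptor. Over the whole array 1.96% of probe sets were higher and 1.07% lower, so the share of Wnt probe sets that were higher, 2.90%, was close to the background. At an unadjusted p under 0.05, 9 were higher (13.0%) and 10 lower (14.5%), against 13.4% and 6.81% of all probe sets. The median log2 difference of the Wnt probe sets was -0.11, against -0.02 over all probe sets, and 28 differences were above 0 and 41 below.

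Many more probe sets passed without Tdg+/- replicate 1, in this set and elsewhere. Of the 69, 8 were then higher (11.6%) and 10 lower (14.5%), where the array as a whole had 11.3% higher and 6.56% lower. Those higher were Wnt4, 1 probe set of Wnt5a, both of Fzd6, Porcn, both of Dvl1 and 1 of Apc. Those lower were Wnt10a, Wnt10b, Fzd5, Lrp5, both probe sets of Fzd7 and 1 each of Fzd2, Fzd4, Dvl2 and Axin2. The median was then -0.07, against -0.03 over all probe sets. With any other single array left out, 1 or 2 Wnt probe sets were higher and 0 or 1 lower. Fewer probe sets passed over the whole array in those fits too. Without Tdg+/- replicate 3, 1.6% of all probe sets were higher and 0.657% lower. Without Tdg+/- replicate 2 or any single Tdg-/- array, 0.282% to 0.357% were higher and 0.234% to 0.282% lower.

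With all arrays, the 3 Tdg-/- arrays lay wholly above the 3 Tdg+/- arrays for 14 probe sets (20.3%) and wholly below for 18 (26.1%). Over the whole array 20.6% lay wholly above and 16.7% wholly below. Without Tdg+/- replicate 1 the counts were 19 (27.5%) and 24 (34.8%), against 23.7% and 24.9% of all probe sets. When each gene was represented by its brightest probe set, Wnt4 and Fzd6 were higher and Fzd4 lower among 44 genes, where 2.52% of 12394 genes were higher and 1.32% lower.

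**Figure D2:**
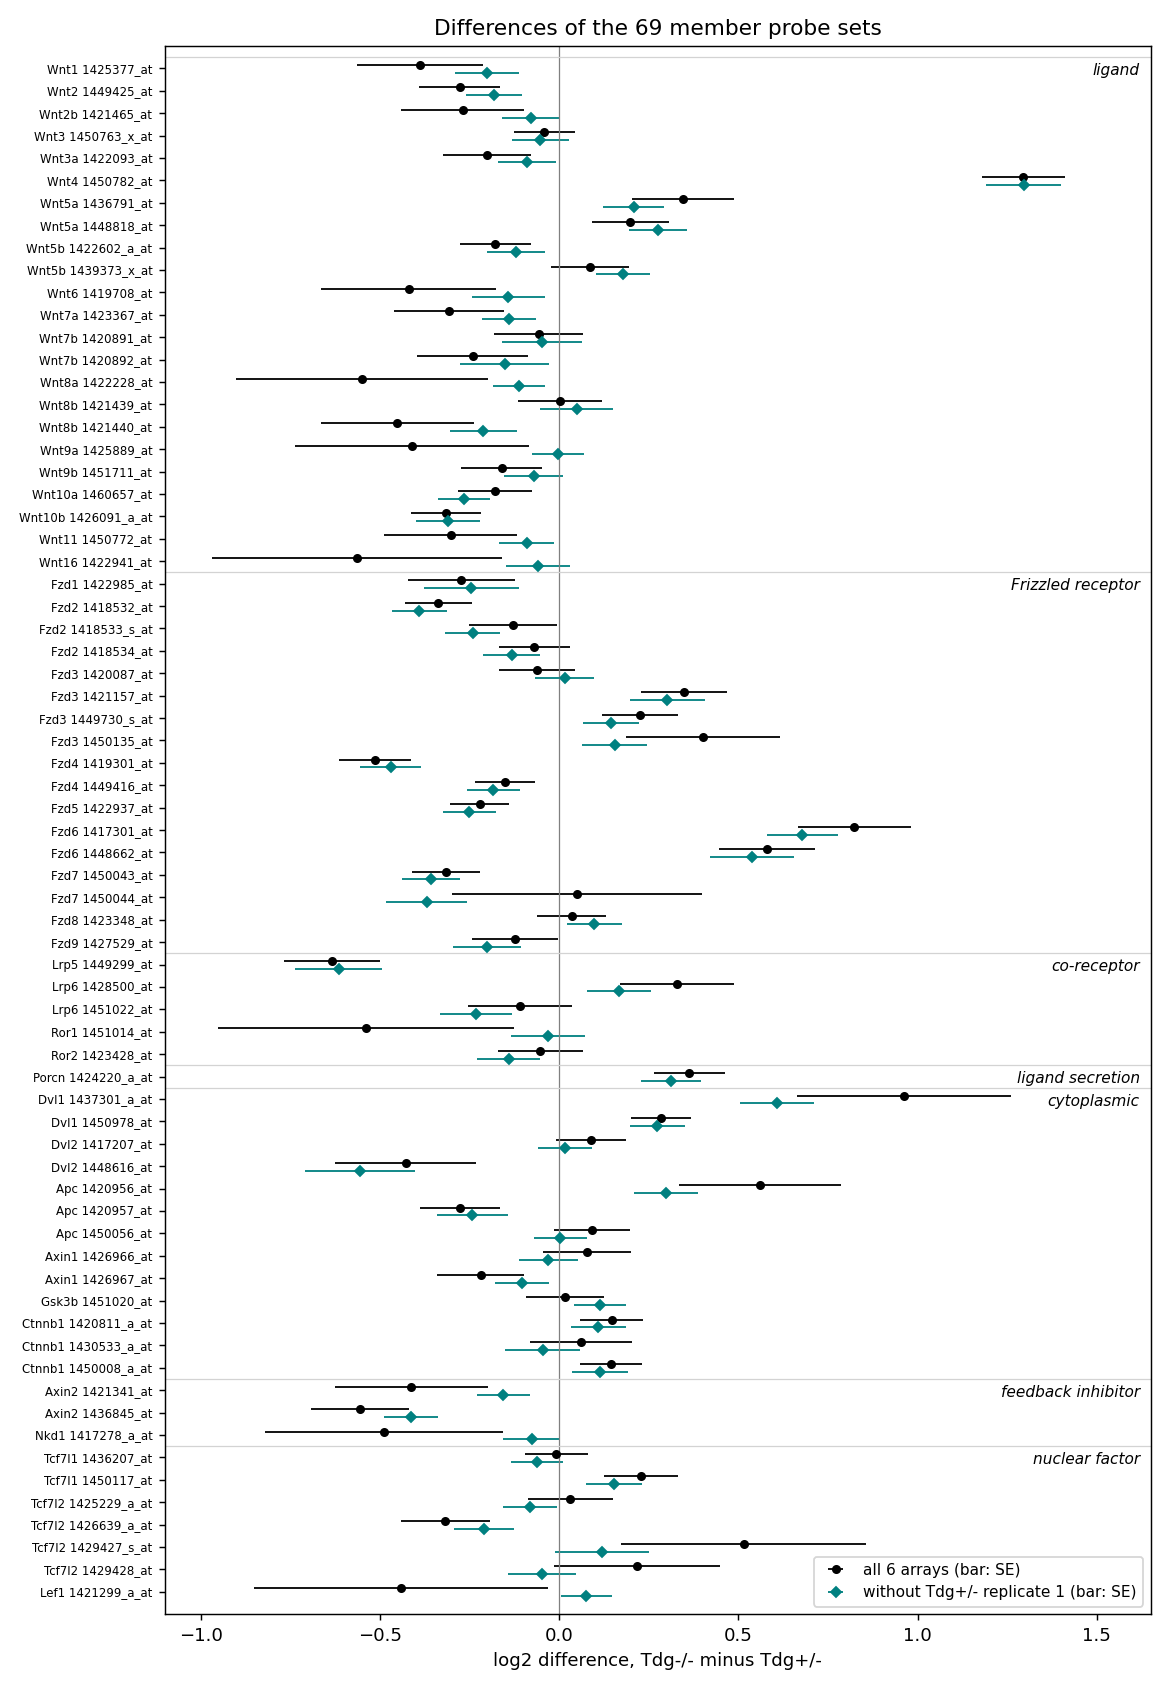
Log2 difference between Tdg-/- and Tdg+/- cells for each of the 69 Wnt probe sets, by role, with all 6 arrays and without Tdg+/- replicate 1; bars are standard errors from limma. Wnt4, at 1.30, lies apart from the other ligands, which lie between -0.56 and 0.35 with all arrays; the ligand median moves from -0.24 to -0.09 without that replicate.

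Wnt4 was the ligand that differed. It signals in kidney, gonad and mammary development and is needed for female sex determination. Its probe set read 6.85, 6.78 and 6.92 (log2) in Tdg+/- replicates 1 to 3 and 8.12, 7.97 and 8.33 in Tdg-/- replicates 1 to 3. All Tdg-/- arrays lay more than 1 log2 unit above all Tdg+/- arrays, and Tdg+/- replicate 1 lay between the other controls. The means were 6.85 ± 0.07 and 8.14 ± 0.18 (SD, n = 3), which is 2.45-fold higher (log2 difference 1.30 ± 0.12, SE; limma adjusted p = 0.00388). The difference was again 1.30 without Tdg+/- replicate 1 (limma adjusted p = 1.45e-05). Wnt4 passed in all 12 settings, each single array left out included, with adjusted p-values up to 0.0377.

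The promoter windows of Wnt4, of the receptor gene Fzd4 and of the feedback gene Axin2 are shown because TDG acts on CpG sites. Wnt4 stands for a ligand gene that passed with all arrays, and Fzd4 for a receptor gene that passed in 4 of 11 settings. Axin2 stands for a target gene that passed in 1 of 11 settings, the fit without Tdg+/- replicate 1. Each window runs from 250 bases before to 50 bases after the annotated start, from RefSeq on build GRCm38.p6. All 3 lie on the plus strand, Wnt4 at chr4:137277385-137277684, Fzd4 at chr7:89404116-89404415 and Axin2 at chr11:108920099-108920398. Capitals mark CpG dinucleotides.
Wnt4: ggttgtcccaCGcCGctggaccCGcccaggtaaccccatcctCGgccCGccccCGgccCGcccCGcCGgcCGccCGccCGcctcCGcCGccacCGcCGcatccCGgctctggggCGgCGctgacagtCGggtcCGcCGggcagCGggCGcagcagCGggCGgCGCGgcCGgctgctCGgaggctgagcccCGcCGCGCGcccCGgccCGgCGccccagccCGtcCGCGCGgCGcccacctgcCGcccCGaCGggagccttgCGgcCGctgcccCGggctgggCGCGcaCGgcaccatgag
Fzd4: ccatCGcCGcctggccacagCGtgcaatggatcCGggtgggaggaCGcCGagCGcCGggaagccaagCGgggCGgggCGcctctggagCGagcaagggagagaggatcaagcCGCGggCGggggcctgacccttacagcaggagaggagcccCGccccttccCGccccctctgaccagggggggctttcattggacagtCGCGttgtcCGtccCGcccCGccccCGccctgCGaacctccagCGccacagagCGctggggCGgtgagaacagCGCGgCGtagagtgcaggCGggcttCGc
Axin2: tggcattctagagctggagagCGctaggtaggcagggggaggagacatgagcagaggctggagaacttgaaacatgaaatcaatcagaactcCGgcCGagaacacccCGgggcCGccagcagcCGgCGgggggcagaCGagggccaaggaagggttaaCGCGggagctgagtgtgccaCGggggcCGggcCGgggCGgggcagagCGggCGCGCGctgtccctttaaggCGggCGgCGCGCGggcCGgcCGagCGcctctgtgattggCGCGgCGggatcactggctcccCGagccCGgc
These windows held 51, 32 and 31 CpG sites in 300 bases. Windows were given for 31 of the 44 Wnt genes, 39 in all, with a median of 27 CpG sites (4 to 58), against a median of 13 (quartiles 4 and 24) over 21263 windows of protein-coding genes. The motif CTTTGA, the core that TCF/LEF factors bind, or its reverse complement TCAAAG stood in 6 of the 39 windows (15.4%), against 16.0% of all 32851 windows and 14.4% of those of protein-coding genes. Neither form stood in the 3 windows printed. DNA methylation was not measured in these cells by the arrays.

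The other ligands did not pass with all arrays. Of 23 ligand probe sets (19 genes), 1 was higher and 0 lower by limma, against 1.96% and 1.07% of all probe sets. Unadjusted p-values were under 0.05 for 2 higher and 2 lower, against 13.4% and 6.81% of all probe sets. The median log2 difference of the ligand probe sets was -0.24 with all arrays and -0.09 without Tdg+/- replicate 1. That array was the highest of the 6 for 16 of the 23 ligand probe sets (69.6%), against 34.1% of all probe sets, and the lowest for 1. Among ligands it lay farthest above the other controls for Wnt16, Wnt8a and Wnt9a.

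Wnt16, a ligand of bone and haematopoietic development, read 7.67, 6.28 and 6.04 in Tdg+/- and 6.18, 6.09 and 6.04 in Tdg-/- cells. Wnt8a, a ligand of the gastrulating embryo, read 7.36, 6.07 and 6.01 in Tdg+/- and 5.97, 5.91 and 5.90 in Tdg-/- cells. Wnt9a, a ligand of joint and skeletal development, read 7.21, 6.03 and 5.96 in Tdg+/- and 5.96, 5.99 and 6.02 in Tdg-/- cells. In each case 1 array, Tdg+/- replicate 1, was high and the other 5 lay close together. The log2 differences of -0.56, -0.55 and -0.41 became -0.06, -0.11 and -0.0044 without it. Wnt6, a ligand of epithelia, had the same form, at 8.00, 7.35 and 6.99 against 7.06, 6.98 and 7.05.

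Wnt5a, the main ligand of the polarity branch in mesenchyme, was read by 2 probe sets. The brighter read 8.27, 8.61 and 8.76 in Tdg+/- and 8.82, 8.99 and 8.87 in Tdg-/- cells (0.35, limma adjusted p = 0.242). The other read 7.59, 7.29 and 7.44 against 7.63, 7.71 and 7.58 (0.20, limma adjusted p = 0.316). Both differences were above 0 and neither passed. Without Tdg+/- replicate 1 the second passed (0.27, limma adjusted p = 0.0410) and the first did not (0.21, limma adjusted p = 0.121). The 2 probe sets of Wnt5b, its close paralogue, had differences of -0.18 and 0.08, or -0.12 and 0.18 without that array. Wnt11, another polarity ligand, had a difference of -0.30, and -0.09 without that array.

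Wnt10b, a canonical ligand of bone, fat and hair follicle biology, read 7.65, 7.62 and 7.64 in Tdg+/- and 7.46, 7.19 and 7.30 in Tdg-/- cells. The arrays did not overlap, and the 3 controls lay close together. The difference of -0.32 did not pass with all arrays (limma adjusted p = 0.156) and passed without Tdg+/- replicate 1 (-0.31, limma adjusted p = 0.0350). Its paralogue Wnt10a had -0.18 with all arrays and -0.27 without that array (limma adjusted p = 0.0287). Some ligand genes are neighbours in the genome with no protein-coding gene between them: Wnt10b with Wnt1, Wnt10a with Wnt6, Wnt3a with Wnt9a, and Wnt3 with Wnt9b. The neighbours Wnt1 (-0.20) and Wnt6 (-0.14) did not pass without Tdg+/- replicate 1.

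**Figure D3:**
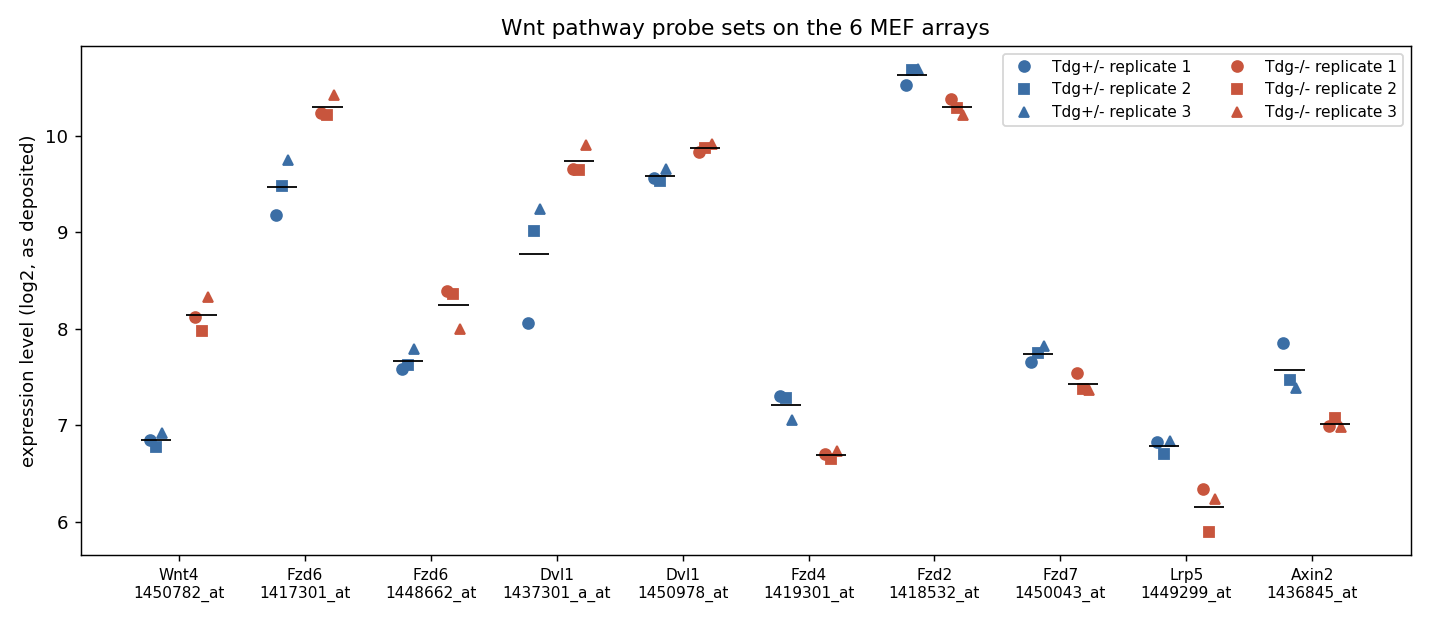
Log2 level of selected Wnt pathway probe sets on each of the 6 arrays, with the mean of each genotype. The Tdg-/- arrays lie wholly above the controls for Wnt4, Fzd6 and Dvl1. They lie wholly below for the Fzd4, Fzd2, Fzd7, Lrp5 and Axin2 probe sets shown. Only probe sets without overlap are shown, and over the whole array 20.6% lay wholly above and 16.7% wholly below.

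Porcn, the acyltransferase that attaches the lipid to Wnt proteins, was read at 7.08, 7.21 and 7.25 in Tdg+/- and 7.65, 7.43 and 7.54 in Tdg-/- cells. All Tdg-/- arrays lay above all controls. The difference of 0.36 did not pass with all arrays (limma adjusted p = 0.123) and passed without Tdg+/- replicate 1 (0.31, limma adjusted p = 0.0265).

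Of 17 probe sets of 9 Frizzled receptor genes, 1 was higher and 0 lower by limma with all arrays, against 1.96% and 1.07% of all probe sets. Unadjusted p-values were under 0.05 for 3 higher and 4 lower, against 13.4% and 6.81% of all probe sets. Leaving out Tdg+/- replicate 1 gave 2 higher, both of Fzd6, and 5 lower, of Fzd2, Fzd4, Fzd5 and Fzd7. The array as a whole then had 11.3% higher and 6.56% lower.

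Fzd6, a receptor of the planar polarity branch that orients hair follicles, read 9.18, 9.48 and 9.75 in Tdg+/- and 10.24, 10.22 and 10.42 in Tdg-/- cells. The arrays did not overlap. It was 1.77-fold higher (0.82 ± 0.16, SE; limma adjusted p = 0.0493), and 1.60-fold higher without Tdg+/- replicate 1 (limma adjusted p = 0.000980). It did not pass without Tdg+/- replicate 2 (0.187) or without Tdg-/- replicate 1 (0.190), replicate 2 (0.210) or replicate 3 (0.249), each an adjusted p from limma. In those fits at most 0.357% of all probe sets were higher. The other Fzd6 probe set read 7.59, 7.62 and 7.80 against 8.39, 8.36 and 7.99 (0.58, limma adjusted p = 0.0835; 0.54 and 0.00975 without Tdg+/- replicate 1). Both probe sets thus had all Tdg-/- arrays above the controls.

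Fzd4, the receptor for Norrin and several Wnts in vessel growth, read 7.30, 7.28 and 7.05 in Tdg+/- and 6.71, 6.65 and 6.73 in Tdg-/- cells. All Tdg-/- arrays lay below all controls. The difference was -0.51 ± 0.10 (SE), 1.43-fold, with a limma adjusted p of 0.0512 over all probe sets, 0.0434 over genes and 0.00374 without Tdg+/- replicate 1. It passed in 4 of 11 settings. Leaving out Tdg+/- replicate 2 gave a limma adjusted p of 0.205, and leaving out Tdg-/- replicate 1, replicate 2 or replicate 3 gave 0.216, 0.274 and 0.231. At most 0.282% of all probe sets were lower in those fits. The second Fzd4 probe set read 5.43, 5.53 and 5.52 against 5.40, 5.34 and 5.28, a difference of -0.15 that did not pass (limma adjusted p = 0.323; -0.18 and 0.119 without Tdg+/- replicate 1).

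Fzd2, a receptor with roles in palate and limb mesenchyme, was read by 3 probe sets with differences of -0.34, -0.13 and -0.07, or -0.39, -0.24 and -0.13 without Tdg+/- replicate 1. The first read 10.52, 10.67 and 10.69 in Tdg+/- and 10.38, 10.28 and 10.21 in Tdg-/- cells, without overlap (limma adjusted p = 0.127; 0.00599 without Tdg+/- replicate 1). Fzd7, a close relative of Fzd2, had 2 probe sets that differed in sign with all arrays. One probe set read 7.66, 7.74 and 7.83 against 7.54, 7.38 and 7.36, a difference of -0.32. The other read 6.83, 8.04 and 8.13 against 7.47, 7.80 and 7.87, a difference of 0.05 that became -0.37 without Tdg+/- replicate 1. Without that array both passed (limma adjusted p = 0.0123 and 0.0466). Fzd5 had a difference of -0.22 (-0.25 without it, limma adjusted p = 0.0407). Fzd1, Fzd9 and Fzd8 had differences of -0.27, -0.12 and 0.03, or -0.25, -0.20 and 0.10 without it, and did not pass in either fit. The 4 probe sets of Fzd3, a receptor of axon guidance and planar polarity, ranged from -0.06 to 0.40, and none passed with or without that array.

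Among the co-receptors, Lrp5, which carries the canonical signal with Frizzled and sets bone mass, read 6.83, 6.70 and 6.84 in Tdg+/- and 6.34, 5.89 and 6.24 in Tdg-/- cells. The arrays did not overlap, and Tdg+/- replicate 1 lay between the other controls. The difference of -0.63 ± 0.13 (SE), 1.55-fold, did not pass with all arrays (limma adjusted p = 0.0665) and passed without Tdg+/- replicate 1 (-0.62, limma adjusted p = 0.00546). Its paralogue Lrp6 had differences of 0.33 and -0.11 at 2 probe sets, or 0.17 and -0.23 without that array, neither past the threshold in either fit. Ror2, a receptor for Wnt5a, had a difference of -0.05, or -0.14 without it. Ror1 read 8.21 on Tdg+/- replicate 1 and 6.44 to 6.81 on the other 5 arrays, and its difference of -0.54 became -0.03 without that array.

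None of the 13 probe sets of the 6 cytoplasmic genes passed with all arrays by limma, where 1.96% of all probe sets were higher and 1.07% lower. Unadjusted p-values were under 0.05 for 3 higher and 1 lower, against 13.4% and 6.81% of all probe sets. Dvl1, a Dishevelled protein that links Frizzled to Axin, read 8.06, 9.01 and 9.24 in Tdg+/- and 9.65, 9.64 and 9.90 in Tdg-/- cells at 1 probe set. At the other it read 9.56, 9.53 and 9.66 against 9.82, 9.87 and 9.92. Neither overlapped. The differences of 0.96 and 0.28 did not pass (limma adjusted p = 0.158 and 0.142), and without Tdg+/- replicate 1 they were 0.61 and 0.27 and both passed (0.00242 and 0.0327). For Dvl2 the probe sets disagreed, at 0.09 and -0.43, and the second passed without that array (-0.56, limma adjusted p = 0.0291).

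Ctnnb1, which encodes beta-catenin, had differences of 0.15, 0.06 and 0.14 at its 3 probe sets, or 0.11, -0.05 and 0.11 without Tdg+/- replicate 1. The first read 12.04, 12.16 and 12.14 in Tdg+/- and 12.19, 12.34 and 12.25 in Tdg-/- cells (limma adjusted p = 0.342). None of the 3 passed in either fit. Gsk3b, the kinase that marks beta-catenin for destruction, had a difference of 0.02 (limma adjusted p = 0.926), or 0.11 without that array. The scaffold gene Axin1 had 0.08 and -0.22 at its 2 probe sets, or -0.03 and -0.10 without it. Apc, the other scaffold, had 0.56, -0.28 and 0.09 at its 3 probe sets. The first Apc probe set read 7.67, 8.35 and 8.57 against 8.67, 8.78 and 8.83, and was the only one of the 3 to pass without Tdg+/- replicate 1 (0.30, limma adjusted p = 0.0418). Beta-catenin is controlled mainly through the stability of its protein, which transcript arrays do not read.

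Axin2, a scaffold that is itself a direct target of beta-catenin and TCF and so serves as a reporter of canonical signalling, read 7.86, 7.47 and 7.39 in Tdg+/- and 7.00, 7.07 and 6.98 in Tdg-/- cells. All Tdg-/- arrays lay below all controls, and Tdg+/- replicate 1 was the highest. The difference of -0.56 ± 0.14 (SE), 1.47-fold, did not pass with all arrays (limma adjusted p = 0.0980), and without Tdg+/- replicate 1 it was smaller and passed (-0.41, limma adjusted p = 0.00347). It passed in no other setting. The other Axin2 probe set read 6.21, 5.47 and 5.42 against 5.33, 5.30 and 5.24 (-0.41; -0.16 without that array, limma adjusted p = 0.171). Nkd1, another feedback inhibitor that binds Dishevelled, read 6.11 on Tdg+/- replicate 1 and 4.71 to 4.89 on the rest, so that its -0.49 became -0.08. That array was the highest for all 3 feedback inhibitor probe sets.

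No nuclear factor passed in either fit. Of 7 probe sets, 0 were higher and 1 lower at an unadjusted p under 0.05 with all arrays. Over the whole array 13.4% were higher and 6.81% lower at that threshold. Lef1, the factor that most often activates with beta-catenin, read 6.83, 5.31 and 5.25 in Tdg+/- and 5.34, 5.38 and 5.35 in Tdg-/- cells. Its difference of -0.44 turned to 0.08 without Tdg+/- replicate 1, the only high array. Tcf7l1, which mainly represses, had -0.0077 and 0.23 at its 2 probe sets, or -0.06 and 0.15 without that array. Tcf7l2, which is spliced into many forms, had differences from -0.32 to 0.51 at 4 probe sets, or -0.21 to 0.12 without it.

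Genes with several probe sets did not always give 1 answer. Of 18 such genes, 8 had the same sign at all probe sets (Axin2, Ctnnb1, Dvl1, Fzd2, Fzd4, Fzd6, Wnt5a and Wnt7b) and 10 had both signs. For orientation on signal, 33 probe sets of olfactory receptor genes, which are not known to be expressed in fibroblasts, had a median level of 6.29 and a 95th percentile of 7.25. By mean level, 32 of the 69 Wnt probe sets lay above that percentile and 37 below, and 5 of the 23 ligand probe sets lay above it. Probe sets differ in brightness for the same amount of RNA, so this is no detection call. Wnt4 lay below the 95th percentile in Tdg+/- cells, at 6.85, and above it in Tdg-/- cells, at 8.14. Below it in both genotypes lay Lrp5 (6.79 in Tdg+/- and 6.16 in Tdg-/- cells), Fzd5 (6.69 and 6.47) and the brighter Fzd4 probe set (7.21 and 6.70). In Tdg-/- cells Lrp5 was also below the olfactory median. The brighter Axin2 probe set lay above the percentile in Tdg+/- cells (7.57) and below it in Tdg-/- cells (7.02). Both Fzd6 probe sets lay above it in both genotypes.

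Genes elsewhere in the pathway were described in 6 lists with 162 probe sets of 91 genes, of which 11 were higher (6.79%) and 4 lower (2.47%) with all arrays, against 1.96% and 1.07% of all probe sets, with a median log2 difference of -0.04. The counts were 22 higher (13.6%) and 27 lower (16.7%) without Tdg+/- replicate 1, against 11.3% and 6.56%. The same whole-array shares, and 13.4% and 6.81% at an unadjusted p under 0.05, stand behind each list that follows. Without any other single array, 0.282% to 1.6% of all probe sets were higher and 0.234% to 0.657% lower. The low ends came from leaving out a Tdg-/- array and the high ends from leaving out Tdg+/- replicate 3. Among 18 probe sets of 12 secreted antagonists, 4 were higher (22.2%) and 2 lower (11.1%). Sfrp2, a Frizzled-related protein that binds Wnts, read 11.53, 11.64 and 11.85 in Tdg+/- and 6.16, 6.39 and 6.33 in Tdg-/- cells, 41.7-fold lower (limma adjusted p = 3.65e-05; 43.8-fold without Tdg+/- replicate 1), and passed in all settings. Its relative Sfrp1 was higher at 2 of 4 probe sets, 3.39-fold and 1.83-fold (limma adjusted p = 0.0104 and 0.0245; 2.89-fold and 1.73-fold without Tdg+/- replicate 1). The brightest Sfrp1 probe set had a difference of -0.23 and did not pass, so with 1 probe set per gene Sfrp1 was not called and 1 antagonist was higher and 2 lower. Dkk3, a Dickkopf family member, was higher at both of its probe sets, 2.65-fold and 2.13-fold (limma adjusted p = 0.0180 and 0.0107; 2.42-fold and 2.24-fold without Tdg+/- replicate 1). Notum, which removes the lipid from Wnts, was 1.49-fold lower (limma adjusted p = 0.0447), or 1.42-fold without that array. Antagonists thus moved in both directions; 4 were higher and 4 lower without Tdg+/- replicate 1. Without Tdg+/- replicate 2, or without Tdg-/- replicate 1 or replicate 2, Sfrp2 was the only antagonist probe set to pass. Without Tdg+/- replicate 3, 2 were higher and 1 lower, and without Tdg-/- replicate 3, 1 was higher and 1 lower.

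Of 46 probe sets of 26 genes known as Wnt targets in some tissue, 5 were higher (10.9%) and 2 lower (4.35%), and with 1 probe set per gene 1 was higher and 2 lower. Ccnd1, which encodes cyclin D1 and responds to many growth signals, was higher at all 3 probe sets, 1.94-fold, 2.12-fold and 1.86-fold (limma adjusted p = 0.00733, 0.0108 and 0.0303), or 1.91-fold, 1.99-fold and 1.69-fold without Tdg+/- replicate 1. The others higher were 1 of 3 probe sets of Id2, 1.67-fold, and 1 of 4 of Cldn1, 1.59-fold (limma adjusted p = 0.0493 and 0.0169). Fst, which encodes follistatin, was 2.50-fold lower (limma adjusted p = 0.00522) and Bmp4 1.95-fold lower (limma adjusted p = 0.00973). Sp5, a direct target in the embryo, read 6.42, 5.51 and 5.54 in Tdg+/- and 5.53, 5.59 and 5.36 in Tdg-/- cells, and Myc had a difference of 0.09; neither passed. The target counts changed with the array left out. Without Tdg+/- replicate 1 they were 9 higher (19.6%) and 11 lower (23.9%), without Tdg+/- replicate 2 they were 0 and 1, and without Tdg-/- replicate 3 both were 0. Without Tdg-/- replicate 1, and likewise without replicate 2, they were 1 and 1. Only without Tdg+/- replicate 3 did they stay close to the full counts, at 4 higher and 2 lower.

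Of 23 probe sets of nuclear cofactors 2 were higher (8.70%) and 0 lower, both of Ctnnbip1, a small inhibitor that binds beta-catenin, at 1.92-fold and 1.61-fold (limma adjusted p = 0.0178 and 0.0457). Neither passed without Tdg+/- replicate 2 or without any single Tdg-/- array, and the 1.61-fold rise did not pass without Tdg+/- replicate 3 either. Unadjusted p-values under 0.05 numbered 6 higher (26.1%) and 0 lower in that list, and 6 were higher without Tdg+/- replicate 1. In the other 3 lists no probe set passed with all arrays by limma. For 13 probe sets of secretion and surface proteins the unadjusted counts were 0 higher and 5 lower (38.5%), and 7 were lower (53.8%) without Tdg+/- replicate 1. For 27 of other cytoplasmic proteins they were 4 (14.8%) and 0, and 2 were higher (7.41%) without it. For 35 of the planar polarity and calcium branch they were 1 (2.86%) and 4 (11.4%), and without it 1 was higher (2.86%) and 5 lower (14.3%).

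**Figure D4:**
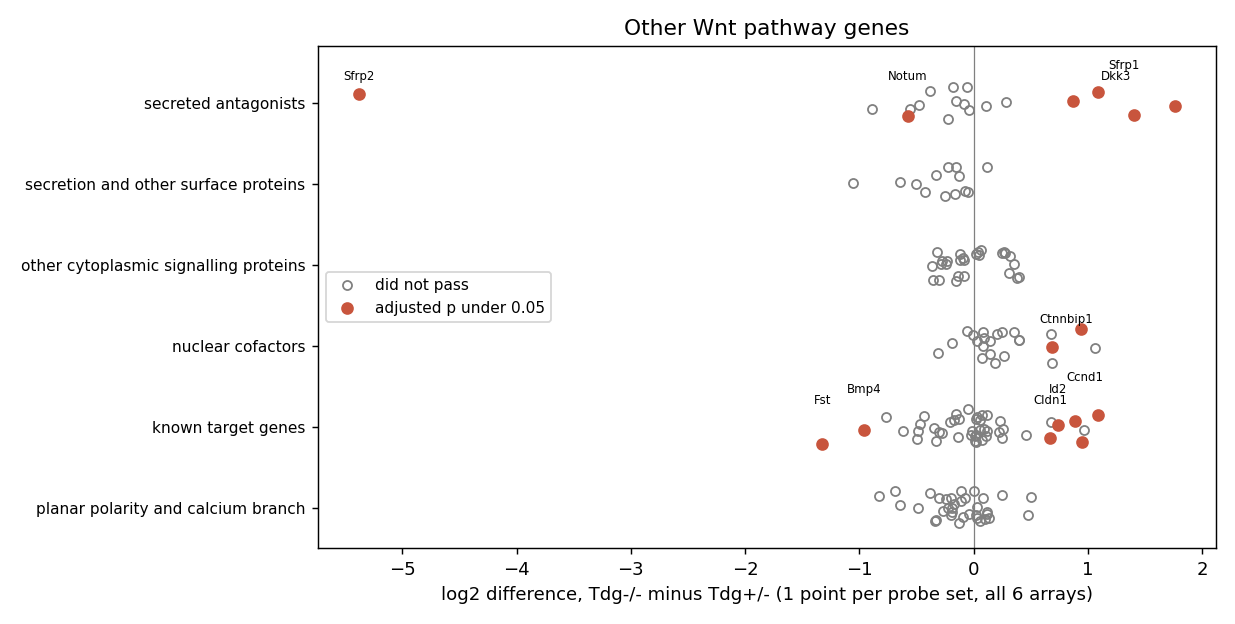
Log2 difference between Tdg-/- and Tdg+/- cells for 162 probe sets of 6 lists of other Wnt pathway genes, 1 point per probe set, with those at an adjusted p under 0.05 filled and named. Sfrp2 lies far to the left at -5.38, and the other filled points lie between -1.32 and 1.76.

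The fibroblast label was checked with marker genes. Fibroblast markers averaged 10.46 to 10.73 (log2) on the Tdg+/- arrays and 10.17 to 10.26 on the Tdg-/- arrays. Of their 18 probe sets 1 was higher (5.56%), of Pdgfrb, and 8 lower (44.4%), of Pdgfra, Postn, Thy1, Col1a2 and Col3a1. Over the whole array 1.96% were higher and 1.07% lower. With 1 array left out at a time the higher count was 0 to 2 and the lower count 3 to 9: 9 without Tdg+/- replicate 1, 7 without Tdg+/- replicate 3, 4 without Tdg-/- replicate 2, and 3 without each of the others. Without Tdg+/- replicate 1 these were 11.1% higher and 50% lower, against 11.3% and 6.56% of all probe sets. In the other such fits 0.282% to 1.6% of all probe sets were higher and 0.234% to 0.657% lower. These whole-array shares, and 13.4% and 6.81% at an unadjusted p under 0.05, stand behind the other marker lists too. Epithelial markers averaged 6.12 to 6.81 and 6.14 to 6.21, and 0 of 10 probe sets passed, also at an unadjusted p under 0.05. Of these, 1 was higher (10%) without Tdg+/- replicate 1. Endothelial markers averaged 6.14 to 6.51 and 5.94 to 5.99, with 1 of 6 lower (16.7%), Kdr. Kdr did not pass when any single array other than Tdg+/- replicate 1 was left out. Macrophage markers averaged 6.22 to 6.46 and 6.17 to 6.23, with 0 of 7 past the test and also 0 at an unadjusted p under 0.05. Neural markers averaged 6.26 to 6.77 and 6.63 to 6.67, with 2 of 13 higher (15.4%), Sox2 and Nes. Without Tdg+/- replicate 1, 3 were higher (23.1%) and 2 lower (15.4%). Most of the list did not rise: with all arrays 3 neural differences were above 0 and 10 below, with a median of -0.24. The median was -0.07 without that array. The largest log2 difference among them, 3.75, was also the largest rise on the whole array. Sox2 passed in every setting that tested it. Nes did not pass without Tdg+/- replicate 2, Tdg-/- replicate 1 or Tdg-/- replicate 3. Skeletal muscle markers averaged 6.30 to 6.47 and 6.19 to 6.30, with 0 of 5 past the test (unadjusted 0 higher and 1 lower). In bulk RNA, fewer cells of a type and less RNA per cell cannot be told apart, and the part of these marker differences in the Wnt gene differences was not tested.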

How the data were processed

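RNA of 6 MEF samples was hybridised to Affymetrix arrays, 3 per genotype. The authors deposited log2 expression values; per the submitters' processing notes MAS5, RMA, affy and limma were used, with no statement of the step that made these values. Probe sets were named from the platform annotation, updated by gene ID to RefSeq (GRCm38.p6): of 22690, 20393 had 1 symbol, 691 several and 1606 none, and 20364 matched. Genotypes were compared over all probe sets with limma 3.58.1 (lmFit, eBayes; R 4.3.3), with Benjamini-Hochberg adjustment and a threshold of 0.05. There was no detection filter, and the number of arrays limits the precision. The alternatives were quantile normalization, a replicate block, 1 probe set per gene (the highest mean), leaving out probe sets below the median level, a trended robust prior, and leaving out each array. Genes were named if they passed, if their arrays did not overlap with a log2 difference of at least 0.5, or as main members of the pathway. Genes given outside this rule complete the account of the members. The members and lists were chosen with earlier results of these data known. The procedure was tested on simulated data. No 2 arrays held identical values.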

Additional observations from a re-analysis of the deposited data

How the results depend on the processing

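With all arrays 2 Wnt probe sets were higher and 0 lower. Quantile normalization gave 2 lower (Fzd2 and Fzd4), 1 probe set per gene gave 1 lower (Fzd4), and the higher count was 2 in both. Over fits that left out 1 array each, the higher count ran from 1 to 8 and the lower count from 0 to 10, both at their highest without Tdg+/- replicate 1. Over the whole array the shares in those fits ran from 0.282% to 11.3% higher and from 0.234% to 6.56% lower. With a replicate block 1 was higher, Wnt4, since Fzd6 had a limma adjusted p of 0.0618, and 0 were lower (Fzd4 0.116). The block left 0.798% of all probe sets higher and 0.476% lower. The block also left 2 higher and 1 lower among the antagonists, 2 and 2 among the targets, where 1 probe set of Ccnd1, Cldn1 and Id2 did not pass, 1 and 0 among the cofactors, 1 and 5 among the fibroblast markers, and 0 and 0 among the endothelial markers. Deviations from the genotype mean correlated at 0.30, 0.045 and 0.27 for same-numbered arrays 1 to 3, and at -0.36 to 0.11 for unlike-numbered arrays. Tdg+/- replicate 2 correlated better with Tdg-/- replicate 3 (0.11) than with replicate 2. Whether same numbers mark pairs was not tested, and the main fit took the arrays as unpaired. Leaving out dim probe sets or using a trended robust prior kept 2 and 0. Some differences changed sign. Under quantile normalization 1 probe set each of Dvl2 (-0.0031), Axin1 (-0.089) and Ctnnb1 (-0.090), and Gsk3b (-0.090), turned below 0. With 1 array left out, differences ran from -0.030 to 0.17 for Axin1, -0.046 to 0.17 for Ctnnb1, -0.37 to 0.28 for Fzd7, -0.041 to 0.11 for Gsk3b, -0.71 to 0.076 for Lef1, -0.23 to 0.0035 for Lrp6, -0.14 to 0.036 for Ror2, -0.061 to 0.042 for Tcf7l1, and -0.080 to 0.10 and -0.048 to 0.38 for 2 probe sets of Tcf7l2. The cause was not tested for the changes under quantile normalization or the block. The median difference of the Wnt probe sets, -0.11, was -0.19 with 1 probe set per gene and 0.08 over the 27 left after dim ones were dropped.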
